A study of Mus musculus with 31 samples.

Results

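Metalloproteinases and their inhibitors that have been linked to emphysema were followed in RNA of alveolar macrophages (AM). The 10 genes were taken from the table of 13521 analyzed genes by their symbols: the matrix metalloproteinases Mmp8, Mmp9, Mmp12, Mmp14 and Mmp19, the membrane proteinases Adam8 and Adam17, and the tissue inhibitors Timp1, Timp2 and Timp3. All 10 symbols were found, each on 1 line of the table. The study asked whether mice without RAGE (the product of Ager, a receptor of advanced glycation end products) respond to cigarette smoke (CS) as wild-type (WT) mice do. At 7 days there were 4 RAGE null CS, 4 RAGE null control, 4 WT CS and 3 WT control libraries, and at 4 months there were 4 of each, 1 library per mouse and 31 in all. All mice were male, on a C57BL/6 background and young adults at the start of exposure. RAGE null mice carried a homozygous null mutation in every cell and were bred as a colony of their own beside the WT colony, so that genotype and colony cannot be told apart. AM were pelleted from lavage fluid, and no sort is described. The libraries of the 2 time points are described as separate sets, so that length of exposure, age and set cannot be told apart either.

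Matrix metalloproteinases (MMPs) are zinc enzymes that cut elastin, collagens and other matrix proteins, and most are secreted as inactive precursors. ADAM proteinases sit in the cell membrane and release the outer parts of other membrane proteins, and tissue inhibitors of metalloproteinases (TIMPs) block the active site of MMPs and of some ADAMs. Emphysema is a loss of alveolar walls in which an excess of matrix-degrading proteinases over inhibitors has long been discussed, and AM are a main source of Mmp12, the macrophage elastase.

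Total counts ran between 11666879 and 19975073 per library at 7 days and between 12769797 and 34492288 at 4 months. At these depths a count of 3, the most that a true level is likely to give when 0 is seen, was worth 0.089 to 0.245 CPM (counts scaled to a common library size), counting error only. Of 13 AM markers 12 were in the table, and their summed level was 16500 to 29800 CPM in every library. Ager itself was counted at 3.83 to 5.43 CPM in RAGE null and at 4.17 to 7.38 CPM in WT libraries at 7 days, with overlap. At 4 months it ran against the labels: all 8 RAGE null libraries (2.73 to 4.20 CPM) lay above all 8 WT libraries (0.671 to 2.53 CPM). The table sums reads over the whole of Ager, so these values do not check the genotype labels, and every direction between genotypes below rests on the labels as given. The library labelled RAGE null control replicate 2 at 4 months stood apart from its group. It held 9.78 CPM of H2-T10, a histocompatibility gene near Ager on chromosome 17, against 19.4 to 22.2 CPM in the other 3 libraries of that group and 3.41 to 4.59 CPM in WT control libraries of that time. It also held 22.5 CPM of Gpr56, an adhesion receptor, against 1.81 to 2.34 CPM in the other 3 and 27 to 41 CPM in WT controls. Both genes were chosen after their values were seen, and Gpr56 is no marker of genotype, since RAGE null controls at 7 days held 25.5 to 33.8 CPM and WT controls 0.656 to 0.864 CPM. Its H2-T10 lay between the ranges of the genotypes, and its Ager, at 2.73 CPM, was above all WT libraries of that time. The genotype label of this library is therefore in doubt, which bears on every RAGE null control value at 4 months, and whether it is right was not tested. WT CS replicate 0 at 7 days also stood apart, with 2040 CPM of 9 airway markers (395 to 499 CPM in WT control libraries) and 3010 CPM of 10 neutrophil markers (377 to 434 CPM). Of that neutrophil sum 2740 CPM came from Ltf, which airway glands make as well. For the followed genes, calls that changed when either library was left out are given with and without it. Calls of cell type markers and of other genes of proteolysis include both libraries and were not refitted.

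Levels can be compared between genes only per transcript length, for which the deposited FPKM (fragments scaled to gene length and library size) were used. Mmp19, which cuts components of the basement membrane, had the highest mean over the 31 libraries (103 FPKM) and made up 71.9 to 94.4% of the summed FPKM of the 5 MMPs. Adam17 (39.7 FPKM) and Timp2 (38.1 FPKM) came next, and their ranges overlapped in all 8 groups. Timp2 made up 92.2 to 99.8% of the summed FPKM of the 3 TIMPs. Mmp8 averaged 15.6 FPKM and Mmp12 2.43 FPKM, without overlap between them in any group. Below these were Mmp14 (1.49 FPKM), Adam8 (0.890 FPKM), Timp1 (0.851 FPKM) and Timp3 (0.334 FPKM), of which Adam8 and Timp1 overlapped in 5 of 8 groups and changed order in 4. Mmp9, the gelatinase B of neutrophils and macrophages, was last at 0.0824 FPKM. The spread between groups was smallest for Adam17 and widest for Timp3: the highest group mean was 1.51 times the lowest for Adam17 and 54.1 times the lowest for Timp3.

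**Figure D1:**
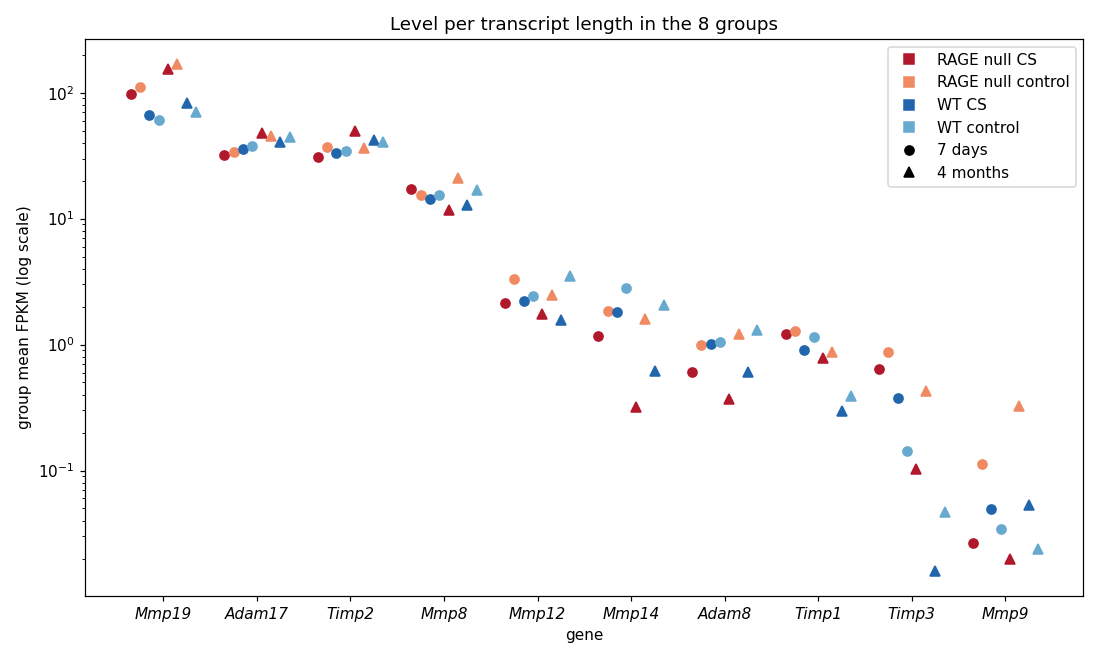
Group means of the 10 genes in FPKM (vertical axis, log scale), ordered by their mean over 31 libraries; colors mark genotype and exposure, circles 7 days and triangles 4 months. Mmp19 lies above all others, at 61.1 to 168 FPKM, and Timp3 spans the widest range, from 0.0161 to 0.869 FPKM.

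Of the 10 genes, 9 passed the filter on low counts in every comparison. Mmp9 did not. Calls needed both an adjusted p below 0.05 (edgeR, over all genes tested) and a 1.5-fold change. In RAGE null mice exposed for 7 days none of the 9 genes was called against controls. Of the 13220 genes tested 0.182% were called higher and 0.257% lower. An unadjusted p under 0.05 was found for 4 of the 9 genes and for 15.8% of all genes tested. In WT mice at 7 days Timp3 was called higher (background 0.983% higher, 1.28% lower). At 4 months 4 of 9 were called lower in RAGE null CS libraries than in their controls and none higher, with 4.43% of 13045 genes called lower and 2.84% higher. In WT mice at 4 months 3 of 9 were called lower and none higher (background 3.33% lower, 2.34% higher). Between genotypes, Mmp19 and Timp3 were called higher in RAGE null controls at 7 days (background 3.01% higher, 1.77% lower) and again at 4 months (3.53% higher, 3.43% lower). After CS none of the 9 genes was called between genotypes at 7 days (background 1.45% higher, 0.749% lower). There 3 of 9 had an unadjusted p under 0.05, as had 18.8% of all genes tested. At 4 months Timp3 alone was called after CS, higher in RAGE null mice (background 1.96% higher, 2.97% lower). The median log2 fold change of the 9 genes was -0.46 in RAGE null and -0.40 in WT mice for CS at 4 months, against -0.008 and -0.004 over all genes tested. At 7 days it was -0.28 in RAGE null and -0.02 in WT mice.

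**Figure D2:**
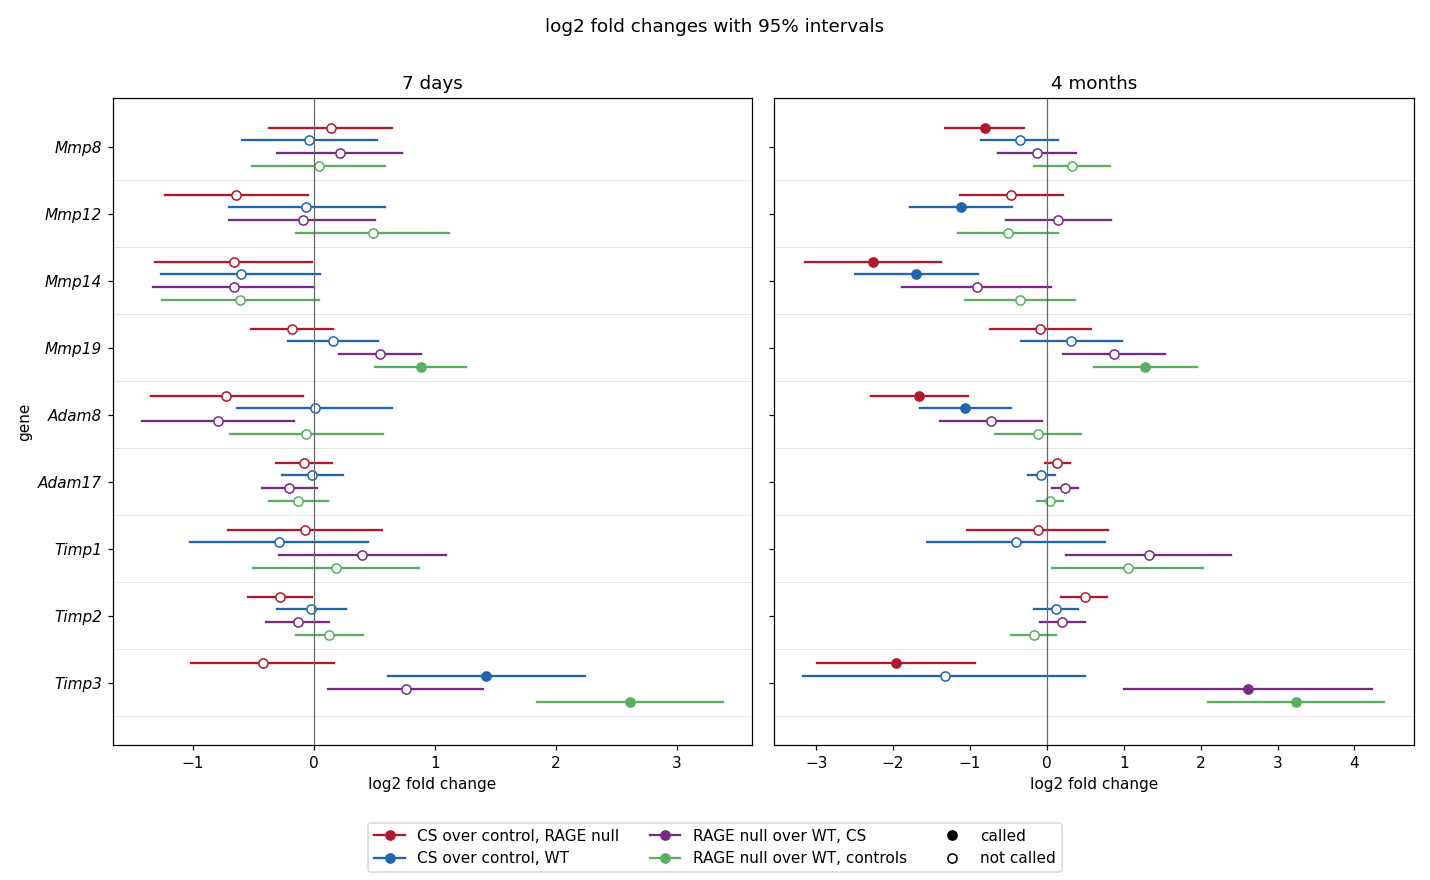
Log2 fold changes of 9 genes (horizontal axis) with 95% intervals at 7 days (left) and 4 months (right); filled points were called and open points were not. After 4 months of CS the points of Mmp14 and Adam8 lie below 0 in both genotypes, and those of Mmp19 and Timp3 for RAGE null over WT lie above 0 in all 4 comparisons.

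Mmp14, the membrane-type collagenase that also activates pro-Mmp2, was lower after 4 months of CS in both genotypes. RAGE null CS libraries held 0.492, 1.25, 1.09 and 0.685 CPM of Mmp14, against 4.13, 1.66, 8.03 and 3.14 CPM in RAGE null controls. The groups did not overlap, and the highest control was replicate 2, which stood apart. Mmp14 fell 4.79-fold (log2 fold change -2.26, SE 0.42, adjusted p = 0.00182), and without that library the log2 fold change was -1.73 (adjusted p = 0.00222). WT CS libraries held 1.07, 1.66, 1.59 and 2.55 CPM of Mmp14, against 4.51, 5.60, 6.21 and 5.62 CPM in WT controls, again without overlap. This was a 3.25-fold lower level (log2 fold change -1.70, SE 0.37, adjusted p = 0.00644). The response of RAGE null mice was not shown to differ from that of WT mice (difference of log2 fold changes -0.56, 95% interval -1.77 to 0.64, adjusted p = 0.725). At 7 days Mmp14 averaged 2.89 ± 1.11 CPM in RAGE null CS and 4.57 ± 2.03 CPM in RAGE null control libraries (SD, n = 4 each), with overlap. WT CS libraries averaged 4.56 ± 1.36 CPM (SD, n = 4) and WT controls 6.89 ± 0.456 CPM (SD, n = 3), without overlap (highest CS 6.30 CPM, lowest control 6.43 CPM). Neither 7-day difference passed the test (log2 fold change -0.66, adjusted p = 0.313 in RAGE null; -0.60, adjusted p = 0.241 in WT). Between control mice at 4 months the log2 fold change of RAGE null over WT was -0.35 (adjusted p = 0.486), and -0.89 (adjusted p = 0.0294) without RAGE null control replicate 2, so that Mmp14 was called lower in RAGE null controls only when that library was left out.

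Adam8, a leukocyte ADAM that sheds adhesion molecules and cuts matrix proteins, moved with Mmp14 at 4 months. Levels of Adam8 were 1.40, 1.47, 2 and 2.40 CPM in RAGE null CS libraries, against 6.73, 8.91, 3.86 and 3.65 CPM in RAGE null controls. Adam8 fell 3.15-fold (log2 fold change -1.66, SE 0.30, adjusted p = 0.00163), without overlap of the groups. In WT CS libraries it stood at 2.25, 3.55, 3.60 and 2.62 CPM, against 5.06, 6.82, 7.94 and 4.86 CPM in WT controls. It fell 2.08-fold there (log2 fold change -1.06, SE 0.28, adjusted p = 0.0182). This call for Adam8 was lost without WT control replicate 2 (adjusted p = 0.0581) or WT CS replicate 0 (adjusted p = 0.0682), with log2 fold changes of -0.92 and -0.93. The difference between the responses was -0.60 (95% interval -1.47 to 0.27, adjusted p = 0.581). At 7 days Adam8 averaged 2.71 ± 0.895 CPM in RAGE null CS and 4.36 ± 1.71 CPM in RAGE null control libraries (SD, n = 4 each), and the difference did not pass the test (log2 fold change -0.72, unadjusted p = 0.0266, adjusted p = 0.256). WT CS libraries at 7 days averaged 4.60 ± 0.972 CPM (SD, n = 4) and WT controls 4.55 ± 0.625 CPM (SD, n = 3).

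Mmp12, the macrophage elastase, was called in 1 comparison. WT CS libraries at 4 months held 8.73, 12.2, 11.8 and 15.2 CPM, against 27.0, 32.4, 23.7 and 19.9 CPM in WT controls, without overlap. Mmp12 fell 2.17-fold (log2 fold change -1.12, SE 0.31, adjusted p = 0.0257). In RAGE null CS libraries there were 10.95, 8.88, 17.6 and 15.8 CPM, against 29.5, 23.3, 8.90 and 12.2 CPM in RAGE null controls. These overlapped, and the difference did not pass the test (log2 fold change -0.46, 95% interval -1.13 to 0.21, adjusted p = 0.328). Without RAGE null control replicate 2, whose 8.90 CPM was the lowest of its group, it was -0.70 (adjusted p = 0.0824), and without replicate 0, whose 29.5 CPM was the highest, it was -0.14 (adjusted p = 0.797). The responses of the genotypes were not shown to differ (0.66, 95% interval -0.29 to 1.60, adjusted p = 0.577). The WT call for Mmp12 was lost in 5 of 16 fits that left out 1 library, with an adjusted p of 0.0557 without WT control replicate 0 and 0.076 without replicate 1. Without WT CS replicates 0, 1 and 2 in turn it was 0.0884, 0.0634 and 0.0645, and over all 16 fits the log2 fold change stayed between -1.26 and -0.98. At 7 days Mmp12 averaged 14.9 ± 7.40 CPM in RAGE null CS and 23.2 ± 5.79 CPM in RAGE null control libraries (SD, n = 4 each; log2 fold change -0.64, adjusted p = 0.282). In WT CS libraries at 7 days it averaged 15.9 ± 5.92 CPM (SD, n = 4) and in WT controls 16.5 ± 2.51 CPM (SD, n = 3).

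Promoters are shown for Mmp12, Mmp14 and Adam8, the 3 genes that fell in WT mice after 4 months of CS, so that the letters upstream of each start can be set side by side. RefSeq promoter windows were found for 8 of the 10 genes, with none for Mmp9 and Mmp19. Each line holds the 250 bases before the RefSeq start in GRCm38.p6, 5′ to 3′ on the gene's strand, at chr9:7344147-7344396 (plus strand) for Mmp12, chr14:54431348-54431597 (plus strand) for Mmp14 and chr7:139992563-139992812 (minus strand) for Adam8. Capitals mark matches to any of 5 motifs.
Mmp12: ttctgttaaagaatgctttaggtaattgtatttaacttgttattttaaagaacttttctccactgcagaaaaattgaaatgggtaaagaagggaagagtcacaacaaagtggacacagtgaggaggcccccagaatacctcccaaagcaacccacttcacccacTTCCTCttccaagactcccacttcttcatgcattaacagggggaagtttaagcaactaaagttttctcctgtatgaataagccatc
Mmp14: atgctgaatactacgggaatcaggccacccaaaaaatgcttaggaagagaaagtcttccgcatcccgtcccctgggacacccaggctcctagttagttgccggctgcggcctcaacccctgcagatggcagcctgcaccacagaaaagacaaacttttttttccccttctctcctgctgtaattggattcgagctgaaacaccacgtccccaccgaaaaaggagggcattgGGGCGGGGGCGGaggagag
Adam8: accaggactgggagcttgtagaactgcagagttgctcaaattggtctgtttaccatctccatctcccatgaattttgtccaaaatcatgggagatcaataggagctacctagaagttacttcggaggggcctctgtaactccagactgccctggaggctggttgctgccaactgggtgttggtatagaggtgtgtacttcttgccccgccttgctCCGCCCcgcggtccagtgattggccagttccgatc
The motifs searched were AP-1 (TGANTCA), the antioxidant response element (TGACNNNGC), the core of PU.1 sites (GAGGAA) and the GC box (GGGCGG) on both strands, and the TATA box (TATAAA) on the sense strand. TGACTCA followed by GC fits both of the first motifs, and the others do not overlap in letters. The Mmp12 window held 1 match to GAGGAA, beginning 86 bases before the start, and none to the other motifs. In the Mmp14 window there were 2 GC boxes side by side, beginning 19 and 13 bases before the start. Adam8 had 1 GC box, 35 bases before its start. Of 32851 mouse promoter windows of this length 23.3% held GAGGAA, 32.7% a GC box, 6.75% an AP-1 match, 10.2% an antioxidant response element and 7.59% a TATA box, and no motif of this set was found in all 3 windows. The matches are no more than letters. The Mmp12 window had 40% G and C bases, that of Mmp14 55.2% and that of Adam8 52.8%.

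Mmp8, known as the neutrophil collagenase, was called only in RAGE null mice at 4 months. In RAGE null CS libraries Mmp8 stood at 34.6, 20.9, 27.9 and 38.4 CPM, against 45.1, 72.4, 39.2 and 55.3 CPM in RAGE null controls, and the groups were separated by less than 1 CPM. Mmp8 fell 1.75-fold (log2 fold change -0.81, SE 0.24, adjusted p = 0.0266). In WT CS libraries it averaged 33.3 ± 9.61 CPM, against 42.0 ± 10.3 CPM in WT controls (SD, n = 4 each; log2 fold change -0.35, 95% interval -0.86 to 0.15, adjusted p = 0.361). The difference between the responses was -0.46 (adjusted p = 0.615). The RAGE null call for Mmp8 was lost without RAGE null control replicate 1 (adjusted p = 0.078) or 3 (0.0641), and without RAGE null CS replicate 1 (0.0849) or 2 (0.0745). With only these 2 groups in the fit the adjusted p was 0.0526. At 7 days Mmp8 averaged between 34.6 and 40.3 CPM in the 4 groups and none of the differences passed the test. Neutrophil markers, of which 10 of 15 were in the table, had lower sums after CS at 4 months: 218 to 301 CPM in RAGE null CS and 394 to 488 CPM in RAGE null control libraries, and 218 to 264 CPM in WT CS and 274 to 324 CPM in WT control libraries. Single markers went both ways, with 4 of 7 tested called lower and 1 higher in RAGE null mice, and 1 lower and 1 higher in WT mice. Over all genes 4.43% were called lower and 2.84% higher in RAGE null mice, and 3.33% lower and 2.34% higher in WT mice. Fpr2 alone was at 82.7 to 255 CPM over all libraries and Trem1 at 37.7 to 235 CPM. S100a9 and Retnlg, both typical of neutrophils, were at 0 in some libraries. The part of neutrophil RNA in the Mmp8 values was not tested.

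Mmp9 was at 0 counts in 7 of 31 libraries and at 9 counts or fewer in all but 2 of the rest. The highest level was 4.36 CPM (57 counts), in RAGE null control replicate 0 at 4 months, where the other libraries of that group held 0.0755, 0.154 and 0.171 CPM. WT CS replicate 0 at 4 months held 0.749 CPM (14 counts). No fold change is given, since almost all other values are near the level that 3 counts are worth.

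Mmp19 differed by genotype and not detectably by exposure. At 4 months RAGE null control libraries held 771, 720, 219 and 642 CPM, against 212, 266, 221 and 269 CPM in WT controls. Replicate 2, the library that stood apart, was the only RAGE null control inside the WT range. Mmp19 was 2.43-fold higher in RAGE null controls (log2 fold change 1.28, SE 0.32, adjusted p = 0.0121), and without replicate 2 the log2 fold change was 1.55 (adjusted p = 0.000222). After 4 months of CS, RAGE null libraries held 911, 372, 453 and 492 CPM, against 326, 324, 324 and 241 CPM in WT libraries. These did not overlap, yet the difference did not pass the test (log2 fold change 0.87, SE 0.31, adjusted p = 0.0856). Without RAGE null control replicate 2, which enters the estimate of spread alone, Mmp19 was called here (0.86, adjusted p = 0.0129), as it was with only the 2 groups (adjusted p = 0.0394) or all 31 libraries (0.0299) in the fit. At 7 days RAGE null controls held 305, 239, 422 and 490 CPM, against 223, 175 and 190 CPM in WT controls, without overlap. Mmp19 was 1.85-fold higher (log2 fold change 0.89, SE 0.18, adjusted p = 0.00658), and the call was lost without WT control replicate 1 (0.82, adjusted p = 0.0509). RAGE null CS libraries at 7 days held 350, 278, 338 and 321 CPM, against 210, 225, 201 and 244 CPM in WT CS libraries (log2 fold change 0.55, adjusted p = 0.0648). The response of Mmp19 to CS was between -0.18 and 0.32 on the log2 scale in the 4 comparisons, with adjusted p of 0.539 or more, and the widest interval was -0.34 to 0.98 (WT at 4 months).

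**Figure D3:**
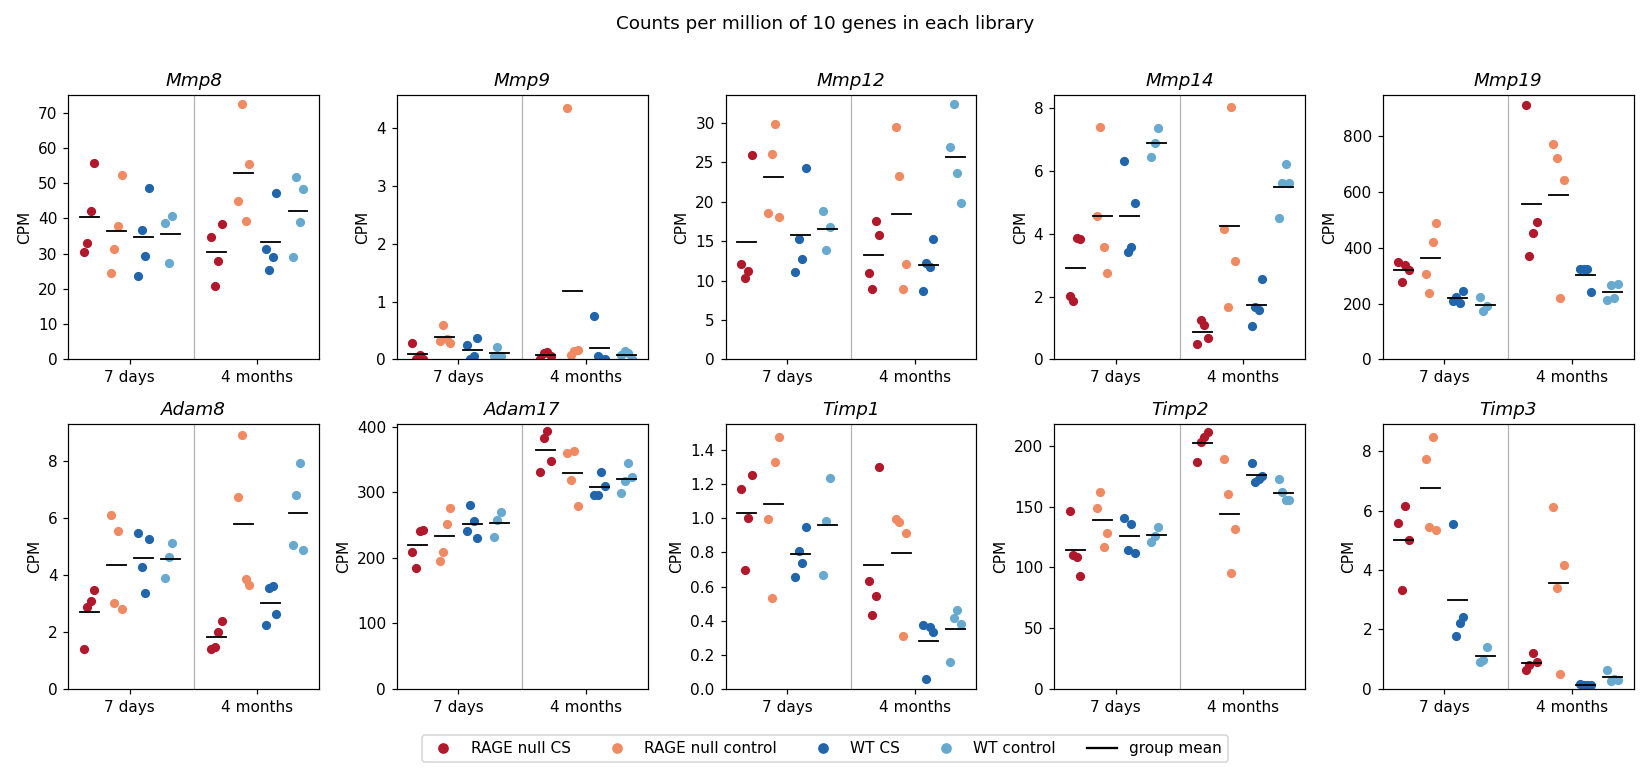
CPM of the 10 genes (vertical axes, from 0) in every library, with RAGE null CS, RAGE null control, WT CS and WT control from left to right at 7 days and at 4 months; short lines are group means. Mmp14 and Adam8 of both genotypes lie lower after 4 months of CS, and 1 RAGE null control at 4 months lies at 219 CPM of Mmp19 among WT values.

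Adam17, the enzyme that releases tumor necrosis factor from the cell surface, was the steadiest of the 10. At 4 months it averaged 364 ± 29.1 CPM in RAGE null CS and 330 ± 39.1 CPM in RAGE null control libraries, and 308 ± 16.6 CPM in WT CS and 321 ± 18.5 CPM in WT control libraries (SD, n = 4 each). The log2 fold change of CS over control was 0.13 (95% interval -0.03 to 0.30) in RAGE null and -0.07 (95% interval -0.24 to 0.10) in WT mice. After CS the RAGE null libraries (331, 383, 393 and 347 CPM) were all above the WT libraries (295, 296, 331 and 309 CPM), by a log2 fold change of 0.24 that did not pass the test (adjusted p = 0.0636). At 7 days the 4 comparisons gave log2 fold changes between -0.20 and -0.01, with adjusted p of 0.354 or more.

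Timp3, an inhibitor that binds to the matrix and blocks Adam17 as well as MMPs, was called in more comparisons than any other of the 10, at low levels. At 7 days RAGE null controls held 7.74, 5.47, 8.49 and 5.35 CPM, against 0.910, 0.984 and 1.42 CPM in WT controls, without overlap. It was 6.10-fold higher (log2 fold change 2.61, SE 0.36, adjusted p = 0.000424). At 4 months RAGE null controls held 6.12, 3.40, 0.515 and 4.17 CPM, against 0.633, 0.267, 0.345 and 0.316 CPM in WT controls, and replicate 2 of the RAGE null controls was again inside the WT range. The difference was 9.45-fold (log2 fold change 3.24, SE 0.54, adjusted p = 0.00172), and 3.63 on the log2 scale (adjusted p = 9.67e-07) without that library.

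The responses of Timp3 to CS at 7 days had opposite signs in the genotypes, and their difference did not pass the test in edgeR. RAGE null CS libraries at 7 days held 5.57, 3.33, 6.16 and 5.01 CPM of Timp3, and the response was not called (log2 fold change -0.42, 95% interval -1.01 to 0.17, adjusted p = 0.489). WT CS libraries held 5.56, 1.78, 2.22 and 2.41 CPM, all above the WT controls. In WT mice Timp3 rose 2.68-fold (log2 fold change 1.42, SE 0.39, adjusted p = 0.0392). Of 9 airway markers 4 were also called higher and none lower (all genes called higher, 0.983%). The airway sum was 2040, 822, 825 and 397 CPM in WT CS libraries, against 395 to 499 CPM in WT controls. By library the order was not the same: replicate 3, with the lowest airway sum, held more Timp3 (2.41 CPM) than replicates 1 and 2 (1.78 and 2.22 CPM). The part of airway RNA in the Timp3 values was not tested. The highest value was that of replicate 0, and without it the log2 fold change was 0.95 (adjusted p = 0.0777). This call was also lost without WT control replicate 0 (adjusted p = 0.162) or 1 (0.156), WT CS replicate 2 (0.0505) or 3 (0.0591) or RAGE null CS replicate 3 (0.0516), and with only the 2 WT groups (0.051) or all 31 libraries (0.0568) in the fit. Without WT CS replicate 0, RAGE null CS libraries were called higher than WT CS libraries (log2 fold change 1.24, adjusted p = 0.0126, against 0.76 and 0.179 with it). The response of RAGE null minus that of WT mice was -1.85 (95% interval -2.85 to -0.84, adjusted p = 0.154), and DESeq2 gave -1.87 (adjusted p = 0.0191).

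After 4 months of CS, Timp3 fell 3.90-fold in RAGE null mice (log2 fold change -1.96, SE 0.48, adjusted p = 0.0104), to 0.632, 0.818, 1.21 and 0.890 CPM in CS libraries. Of the controls, replicate 2 alone was not above these, and without it the log2 fold change was -2.35 (adjusted p = 3.07e-05). With the 2 RAGE null groups alone in the fit the adjusted p for Timp3 was 0.0715. WT CS libraries held 0.161, 0.118, 0.144 and 0.134 CPM, which are 2 to 3 counts each, against 5 to 9 counts in WT controls (log2 fold change -1.33, 95% interval -3.17 to 0.50, adjusted p = 0.340). Timp3 was higher in RAGE null CS than in WT CS libraries (log2 fold change 2.61, 95% interval 1 to 4.23, adjusted p = 0.0381), but this call was lost when any 1 of the 8 libraries compared was left out (adjusted p 0.0517 to 0.0933).

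Some markers of alveolar epithelium were called in the direction of Timp3 between control mice and after 4 months of CS in RAGE null mice. For CS in WT mice at 7 days none was called higher. All 10 markers of type 1 alveolar cells were in the table. Their sum was 210 to 253 CPM in RAGE null controls at 7 days, against 113 to 151 CPM in WT controls. Of the 10, 7 were called higher and none lower (all genes called higher, 3.01%). At 4 months the sum was 97.3 to 216 CPM in RAGE null controls, against 121 to 145 CPM in WT controls. The lowest value was again that of replicate 2, and 6 of 9 tested were called higher (all genes, 3.53%). After CS, 6 of 10 were called higher in RAGE null than in WT mice at 7 days (all genes, 1.45%) and 3 of 9 at 4 months (1.96%). In RAGE null mice exposed for 4 months the sum was 101 to 134 CPM, and 5 of 9 were called lower than in controls (all genes, 4.43%). In WT mice exposed for 7 days, where Timp3 was called higher, the sum was 122 to 140 CPM, against 113 to 151 CPM in controls. None of the 10 was called higher and 1 lower, and no type 2 marker was called. Median log2 fold changes there were 0.23 for type 1 and 0.46 for type 2 markers, against -0.003 over all genes tested. The defining markers Aqp5 and Clic5 were not at 0 in any library (lowest 0.297 and 0.134 CPM). Cav1 alone was at 55.4 to 124 CPM, so the type 1 sum says little of markers at low levels such as Aqp5 and Clic5. Type 2 markers (9 of 10 in the table) were at 266 to 331 CPM in RAGE null and 205 to 216 CPM in WT controls at 7 days. Of these, Abca3 alone was at 92.2 to 190 CPM over all libraries. How much of Timp3 came from epithelial RNA was not tested, and in bulk RNA a change in the number of cells of a type and in RNA per cell cannot be told apart.

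Markers of monocytes and interstitial macrophages had lower sums after 4 months of CS in both genotypes, where Mmp14 and Adam8 were lower as well. Mmp12 was called lower in WT mice alone. All 12 markers were in the table. Their sum was 961 to 1730 CPM in RAGE null CS, against 2460 to 3960 CPM in RAGE null control libraries. In WT mice it was 722 to 1070 CPM in CS, against 1490 to 2100 CPM in control libraries. Of 11 tested, 7 were called lower in RAGE null and 6 in WT mice after CS, and none higher. Over all genes 4.43% were called lower in RAGE null and 3.33% in WT mice. Fn1 alone was at 583 to 3530 CPM, and Ly6c2 and Cx3cr1 were at 0 in some libraries. The sum was also higher in RAGE null than in WT controls at both times (1510 to 1700 against 972 to 1170 CPM at 7 days), as Mmp19 was. Mmp19 did not follow the lower sum after 4 months of CS (log2 fold change -0.09 in RAGE null, 0.32 in WT mice). For RAGE null over WT controls at 7 days and 4 months, Mmp14 gave -0.61 and -0.35 and Adam8 -0.06 and -0.12. Mmp12 gave 0.49 and -0.50 there, and none of these was called. The part of these cells in the values of the 4 proteinases was not tested.

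**Figure D4:**
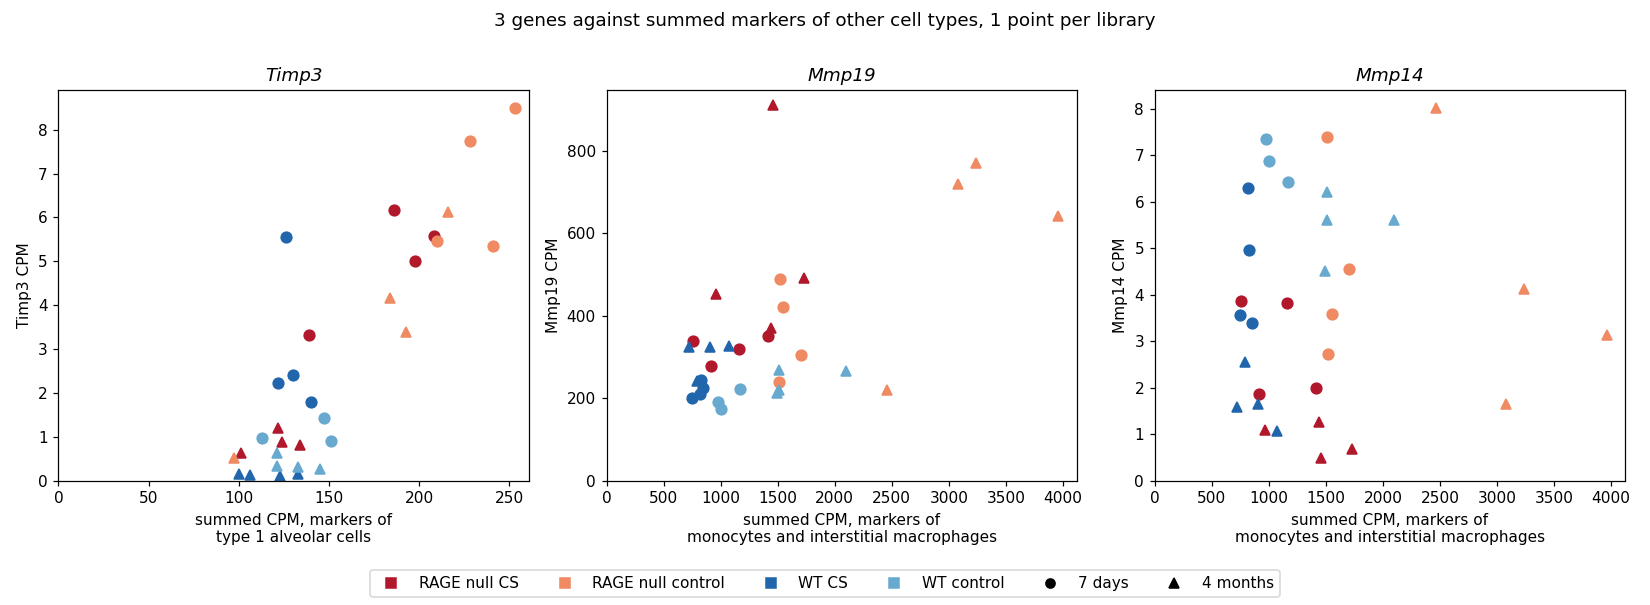
CPM of Timp3, Mmp19 and Mmp14 (vertical axes) against summed CPM of marker lists (horizontal axes), 1 point per library, with 7 days as circles and 4 months as triangles. RAGE null controls, except 1 library at 97.3 CPM, lie to the right of all WT libraries for type 1 alveolar cell markers, and 1 WT CS library at 7 days lies among them for Timp3, at 5.56 CPM.

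Timp2, which blocks MMPs and also takes part with Mmp14 in the activation of pro-Mmp2, was the abundant inhibitor. RAGE null CS libraries at 4 months held 187, 203, 208 and 212 CPM, against 189, 160, 95.3 and 132 CPM in RAGE null controls. Its adjusted p was 0.0211, but the 1.40-fold change was under the fold threshold (log2 fold change 0.49, SE 0.14; 0.33 without RAGE null control replicate 2, which held the lowest value). Without RAGE null control replicate 0 it passed both thresholds (0.64, adjusted p = 0.00291). Over the 16 fits that left out 1 library, the adjusted p of this response ran from 0.00291 to 0.068, with log2 fold changes of 0.33 to 0.64. At 7 days RAGE null CS libraries held 147, 111, 109 and 92.9 CPM, against 149, 162, 117 and 129 CPM in RAGE null controls (log2 fold change -0.28, adjusted p = 0.293). The response of RAGE null mice at 4 months exceeded that at 7 days by 0.77 on the log2 scale (SE 0.20, adjusted p = 0.0325), when 0.82% of 13408 genes were called higher and 1.04% lower. This call for Timp2 was lost without any of 7 libraries: RAGE null control replicate 1 (adjusted p = 0.0815) and RAGE null CS replicates 2 (0.0513) and 3 (0.0738) at 7 days, and RAGE null control replicate 3 (0.0711) and RAGE null CS replicates 1 (0.0533), 2 (0.0617) and 3 (0.0744) at 4 months. In WT mice Timp2 at 4 months averaged 176 ± 6.95 CPM in CS and 162 ± 8.35 CPM in control libraries (SD, n = 4 each; log2 fold change 0.12, 95% interval -0.17 to 0.41).

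Timp1, an inducible inhibitor of most MMPs, was counted at 1 to 26 reads per library. At 4 months RAGE null controls held 0.995, 0.982, 0.309 and 0.913 CPM, against 0.158, 0.415, 0.460 and 0.379 CPM in WT controls (log2 fold change 1.05, SE 0.46, adjusted p = 0.112). Without replicate 2 of the RAGE null controls, Timp1 was called higher (log2 fold change 1.35, adjusted p = 0.0246). RAGE null CS libraries at 4 months held 0.632, 0.436, 0.545 and 1.30 CPM, all above the 0.375, 0.0592, 0.360 and 0.336 CPM of WT CS libraries, but the difference did not pass the test (log2 fold change 1.33, adjusted p = 0.107). Responses of Timp1 to CS lay between -0.40 and -0.07 on the log2 scale, none past the test.

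No interaction of genotype and exposure was called for any of the 9 genes. At 7 days 0% of all genes were called in either direction by edgeR, although 2096 of 13220 had an unadjusted p under 0.05, and 1 of the 9 genes, Timp3, did. DESeq2 called 114 genes there, and edgeR called 119 without RAGE null control replicate 0, 68 without WT control replicate 2 and 2 without RAGE null CS replicate 0. At 4 months 0.0153% were called higher and 0.023% lower. None of the 9 genes had an unadjusted p under 0.05 there, against 12% of all genes tested. In WT mice the response at 4 months minus that at 7 days was -1.06 for Mmp12 (adjusted p = 0.228), -1.10 for Mmp14 (adjusted p = 0.256), -1.07 for Adam8 (adjusted p = 0.185) and -2.75 for Timp3 (adjusted p = 0.124). None was called, with 0.351% of genes called higher and 0.433% lower. In RAGE null mice it was -1.59 for Mmp14 (adjusted p = 0.107), -0.94 for Mmp8 (adjusted p = 0.165) and -1.53 for Timp3 (adjusted p = 0.145). Mmp14 was called in that comparison without RAGE null control replicate 1 at 4 months (-1.84, adjusted p = 0.0436) and Timp3 without replicate 2 (-1.91, adjusted p = 0.00866).

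Genes with the most similar pattern were sought among all genes whose mean log2 CPM reached 1, by Pearson's r over the 31 libraries with each time point centered on its own mean. These values describe libraries that share groups, and carry no test. Mmp14 was most like Irf5 (r = 0.94), Fscn1 (0.88) and Gpr132 (0.88), and Gpr132 also led for Adam8 (0.82). Irf5 encodes an interferon regulatory factor of macrophages and Fscn1 an actin-bundling protein. Mmp12 was most like C1qa (0.74), C230081A13Rik (0.71) and C1qb (0.71), of which C1qa and C1qb encode complement chains and are among the interstitial macrophage markers. Timp3 was most like Aqp5 (0.96), Clic5 (0.95) and Atp1b1 (0.95), the first 2 of them type 1 alveolar cell markers. Aqp5 averaged 13.2 ± 4.31 CPM in RAGE null and 1.54 ± 0.326 CPM in WT controls at 7 days (SD, n = 4 and 3). Mmp19 followed Tmem198b (0.99), which lies on the opposite strand and shares 789 bases with the end of Mmp19, then Entpd1 (0.91) and Lrp4 (0.89). For the others r reached 0.77 (Timp2 with Txndc16), 0.74 (Timp1 with Ing1), 0.73 (Mmp8 with Gm13546), 0.69 (Adam17 with Adi1) and 0.64 (Mmp9 with 4930417G10Rik).

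In mm10, Mmp8 and Mmp12 lie on chromosome 9 (7558429 to 7568486 and 7344381 to 7369499), Mmp19 and Timp3 on chromosome 10 (128790953 to 128800824 and 86300372 to 86349506) and Timp1 on chromosome X (20870166 to 20874735). Timp1 lies wholly within Syn1 and Timp3 wholly within Syn3, both on the opposite strand, and the antisense gene Gm47093 spans Mmp19. By their spans Mmp12 shares 1261 bases with Mmp1b, Adam17 311 bases with Iah1 and Adam8 46 bases with Gm16201, all on the opposite strand. Timp2 shares 10141 bases with Cep295nl on its own strand. The strand of the reads is not given in the sources used here. Reads of a gene with such a partner therefore cannot be told apart from those of the partner where exons overlap.

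Other genes of proteolysis were described from 8 lists, of which 49 genes were tested at 4 months. In RAGE null mice 6 (12.2%) were called higher and 6 (12.2%) lower after 4 months of CS, where 2.84% of all genes were called higher and 4.43% lower. In WT mice 6 (12.2%) were called higher and 5 (10.2%) lower, where it was 2.34% and 3.33% of all genes. Of 7 other MMPs in the table (of 15 listed), 5 were tested at 4 months. Mmp25, a membrane-anchored MMP of leukocytes, fell in all 4 comparisons of CS with control. At 4 months it averaged 1.81 CPM in RAGE null CS and 3.59 CPM in RAGE null control libraries (log2 fold change -0.98, adjusted p = 0.0117), and 1.25 CPM in WT CS and 6.41 CPM in WT control libraries (-2.38, adjusted p = 3.17e-05). At 7 days the log2 fold changes of Mmp25 were -1.35 (adjusted p = 0.0389) in RAGE null and -1.29 (adjusted p = 0.0194) in WT mice. Mmp2, the gelatinase A whose precursor Mmp14 activates, rose at 4 months while Mmp14 fell: it averaged 0.980 CPM in RAGE null CS and 0.516 CPM in RAGE null control libraries (log2 fold change 0.93, adjusted p = 0.015), and 2.08 CPM in WT CS and 0.793 CPM in WT control libraries (1.35, adjusted p = 0.000175). Mmp2 was also lower in RAGE null than in WT CS libraries at 4 months (-1.08, adjusted p = 0.00131). Mmp15, another membrane-type MMP, was higher in RAGE null controls at 7 days (log2 fold change 2.19, adjusted p = 0.0484) and 4 months (2.60, adjusted p = 0.00262), as Timp3 was. Mmp15 averaged 2.81 CPM in RAGE null and 0.613 CPM in WT controls at 7 days, and 1.6 against 0.262 CPM at 4 months. The last value is near the level that 3 counts are worth.

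Among 10 other ADAM and ADAMTS genes tested at 4 months, Adam19 and Adam23 fell after CS in both genotypes. Adam19, a sheddase of neuregulins, averaged 0.451 CPM in RAGE null CS and 2.49 CPM in RAGE null control libraries (log2 fold change -2.44, adjusted p = 0.000223), and 0.775 CPM in WT CS and 6.07 CPM in WT control libraries (-2.95, adjusted p = 1.51e-05). In WT mice the CS response of Adam19 at 4 months minus that at 7 days was -2.54 (adjusted p = 0.035). Adam19 was not called for CS in WT mice at 7 days. Adam23, which lacks a working catalytic site, gave -2.28 (adjusted p = 0.00276) in RAGE null and -3.24 (adjusted p = 0.000125) in WT mice. It averaged 0.266 CPM in RAGE null CS and 1.3 CPM in RAGE null control libraries, and 0.273 against 2.62 CPM in WT mice. Its CS means are near the level that 3 counts are worth. Adam33 was called higher after CS in RAGE null mice (0.82, adjusted p = 0.00734). Adam22, also without a catalytic site, was called lower in WT mice (-0.68, adjusted p = 0.000163). Of 2 other inhibitors of metalloproteinases in the table (of 6 listed), 1 was tested, and Pzp, a broad proteinase inhibitor, was lower in RAGE null than in WT controls at 4 months (-0.73, adjusted p = 0.00228).

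Of 10 elastolytic serine and cysteine proteinases listed 5 were tested, and 2 of them rose after 4 months of CS in each genotype and none fell (all genes called higher, 2.84% in RAGE null and 2.34% in WT mice). Ctsk, the strongly elastolytic cathepsin K, averaged 1166 CPM in RAGE null CS and 773 CPM in RAGE null control libraries (log2 fold change 0.59, adjusted p = 0.0357), and 1830 CPM in WT CS and 1090 CPM in WT control libraries (0.74, adjusted p = 0.0141). It was lower in RAGE null than in WT CS libraries at 7 days (-0.95, adjusted p = 6.48e-05) and at 4 months (-0.65, adjusted p = 0.034). Ctsd, which is an aspartic and not a cysteine proteinase, rose in both genotypes (0.63, adjusted p = 0.000342 in RAGE null; 0.66, adjusted p = 0.000215 in WT). Among 5 genes of plasminogen activation, Plaur, the urokinase receptor, was called lower after 4 months of CS in RAGE null mice (-0.76, adjusted p = 0.00391). It averaged 356.5 CPM in RAGE null CS and 599 CPM in RAGE null control libraries. In WT controls it averaged 367 CPM, and RAGE null controls were called higher than these (0.71, adjusted p = 0.0078). The groups overlapped in both comparisons, and the RAGE null controls include the library whose label is in doubt. No gene of that list was called for CS in WT mice. Of 10 activators and partners of ADAM17 and MMPs, Cd63, a tetraspanin to which human TIMP1 binds, was called higher after CS in WT mice at 7 days (0.85, adjusted p = 0.000733) and in both genotypes at 4 months (1.43, adjusted p = 0.00314 in RAGE null; 1.08, adjusted p = 0.0179 in WT), and the other 9 were not called for CS. Of 11 inhibitors of serine and cysteine proteinases tested at 4 months, Serpina3g was lower after CS in RAGE null (-2.03, adjusted p = 0.0169) and WT mice (-2.22, adjusted p = 0.00124). It averaged 0.092 CPM in RAGE null CS and 0.39 CPM in RAGE null control libraries, and 0.24 against 1.1 CPM in WT mice. These CS means are near the level that 3 counts are worth, so the size of the falls is uncertain. Wfdc17 was higher in WT mice (1.13, adjusted p = 0.00517). Of the 2 elastic fibre genes in the table (of 12 listed), Emilin1 was lower after CS in RAGE null mice (-0.78, adjusted p = 0.000324) and Ltbp2 higher in WT mice (1.08, adjusted p = 0.0279). Emilin1 was also called higher in RAGE null than in WT mice at 4 months. This held in controls (217.5 against 101.4 CPM; 1.10, adjusted p = 2.77e-05) and after CS (127.2 against 82.9 CPM; 0.62, adjusted p = 0.00266).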

How the data were processed

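RNA of alveolar macrophages from 31 mice was sequenced from poly(A)-selected libraries with single-end reads. Per the labels and the study's methods, the authors aligned reads to mm10 with Novoalign, removed reads with more than 1 location and counted reads per gene with USeq. The deposited table holds these raw counts and, from the authors, FPKM per library, and each listed gene reached at least 20 counts in some library. Columns of the authors' own comparisons (log2 ratios and adjusted p-values) were not used.

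Counts were tested with edgeR 4.0.16 (quasi-likelihood, TMM scaling, R 4.3.3) in 1 fit of 4 groups per time point, or of all 31 libraries for differences between times. Genes were kept by filterByExpr (minimum count 10, minimum total 15), p-values were adjusted by Benjamini-Hochberg over all genes tested, and calls needed an adjusted p below 0.05 with a 1.5-fold change. The p-values measure the spread between mice. CPM are on 1 TMM scale over 31 libraries, so that levels of 1 gene can be compared between groups, and FPKM were used only for levels between genes. Named genes were the 10 members, Ager, up to 3 called genes of the smallest p in each list and comparison, and for each member the 3 genes of highest Pearson r. Each replicate was left out in turn, and DESeq2 1.42.0, size factors of DESeq2 in edgeR, no filter on low counts, no fold threshold, fits of only the groups compared, a fit of all 31 libraries and a replicate block were among the alternatives. Replicate numbers did not pair the mice. The tests were checked on simulated counts. The members and all gene lists were chosen with earlier results of these data known. The values of 1 list gene are not reported here.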

Additional observations from a re-analysis of the deposited data

Results flagged for a closer look

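Within groups of 4 libraries the highest or lowest value was tested against the rest by Dixon's ratio of the gap to the range. Of 70 groups 7 passed, where chance gives 3.5. Mmp9 stood at 4.36 CPM in RAGE null control replicate 0 at 4 months (others 0.0755 to 0.171 CPM) and at 0.749 CPM in WT CS replicate 0 at 4 months (others 0 to 0.0592 CPM). Mmp12 was at 25.9 CPM in RAGE null CS replicate 3 at 7 days (others 10.3 to 12.1 CPM). Mmp19 was at 241 CPM in WT CS replicate 3 at 4 months, below the 324 to 326 CPM of the others. Timp1 was at 0.309 CPM in RAGE null control replicate 2 (others 0.913 to 0.995 CPM) and at 0.0592 CPM, which is 1 count, in WT CS replicate 1 (others 0.336 to 0.375 CPM), both at 4 months. Timp3 was at 5.56 CPM in WT CS replicate 0 at 7 days (others 1.78 to 2.41 CPM).

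The CS response of Timp2 in RAGE null mice differed between times, by 0.77 on the log2 scale (4 months minus 7 days, edgeR adjusted p = 0.0325).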

How the results depend on the processing

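For single members no log2 fold change past the test turned its sign under any alternative run. Counts of members called changed under few of them. For CS in WT mice at 7 days 1 was called, and 0 with only the 2 groups or with all 31 libraries in the fit. For CS in RAGE null mice at 4 months 4 were called, 2 with only the 2 groups and 5, with Timp2, without the fold threshold. Between genotypes after CS at 4 months 1 was called, and 2 with all 31 libraries. DESeq2 called 1 member, Timp3, where edgeR called 0: for the interaction at 7 days (-1.87, adjusted p = 0.0191) and for the difference between times in WT mice (-2.85, adjusted p = 0.0308). Leaving out 1 library in turn gave 0 to 1 members for CS in WT and 0 for CS in RAGE null mice at 7 days, 0 to 1 between genotypes after CS and 1 to 2 between controls at 7 days. At 4 months it gave 1 to 3 in WT, 3 to 5 in RAGE null, 0 to 2 between genotypes after CS and 2 to 4 between controls. For the difference between times it gave 0 to 2 in RAGE null and 0 in WT mice, and for both interactions 0. Timp3 was not tested with only the 2 CS groups at 4 months, where it did not pass the filter. The list genes were not refitted.

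Over all genes, counts of calls moved by more than 1.5 times in these cases. Without the fold threshold they were 119 (main 58), 847 (299), 588 (291) and 1307 (632) at 7 days for CS in RAGE null, CS in WT, genotypes after CS and genotypes in controls. In the same order at 4 months they were 2606 (949), 1863 (739), 1414 (644) and 2777 (909), and 8 (5) for the interaction and 164 (105) for times in WT. DESeq2 called 114 (58) for CS in RAGE null at 7 days, 114 (0) and 65 (5) for the interactions at 7 days and 4 months, and 258 (105) for times in WT. With only the 2 groups there were 27 (58) for CS in RAGE null at 7 days, 596 (949) at 4 months and 604 (909) between controls at 4 months. With all 31 libraries the interactions had 100 (0) and 31 (5) calls. Leaving out 1 library in turn moved them further: at 7 days to 15 to 194 (58) for CS in RAGE null, 46 to 480 (299) for CS in WT, 178 to 305 (291) for genotypes after CS, 241 to 830 (632) for controls and 0 to 119 (0) for the interaction. At 4 months the interaction gave 3 to 74 (5) and controls 647 to 1481 (909), and the difference between times gave 92 to 469 (250) in RAGE null and 0 to 300 (105) in WT mice.

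Replicate numbers did not pair the mice: mean correlations of same-numbered deviations were -0.041 to 0.078 at 7 days and -0.096 to 0.144 at 4 months, and in 0 of 6 group pairs at each time was every correlation over 0.1. With the replicate number as a block the counts of members stayed at 1, 0, 0, 2 and 0 at 7 days, 3, 4, 1, 2 and 0 at 4 months (CS in WT, CS in RAGE null, genotypes after CS, in controls, interaction), and 0 and 1 for times in WT and RAGE null mice. The block moved all-gene counts over 1.5 times for CS in WT at 7 days (189, main 299) and for times in WT (55, main 105). Depth limits Mmp9, Timp1 and Timp3 most: 3 counts are worth 0.089 to 0.245 CPM.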
